A study of Mus musculus with 6 samples.

Results

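The Eph receptors are the largest family of receptor tyrosine kinases, and their ligands, the ephrins, are held on the membrane of neighbouring cells. EphA receptors mostly bind ephrin-A ligands, which are anchored to the membrane by a lipid, and EphB receptors mostly bind ephrin-B ligands, which span it. On contact the receptor signals into its own cell (forward signalling) and the ephrin can signal into the cell that carries it (reverse signalling), and in the developing nervous system this is known for guiding axons, sorting cells at boundaries and acting on neural progenitors. Expression of 10 genes of these families was compared here between mouse embryonic stem cells (ESCs) and neural precursor cells (NPCs). They were taken by a list of identifiers fixed by gene name, which was chosen with earlier results of these data known. All 10 had a row, and they are 10 of the 17144 genes measured: 5 EphA receptors, 1 EphB receptor, 1 ephrin-A and 3 ephrin-B ligands.

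RNA was hybridized to Affymetrix mouse expression arrays, with 3 ESC and 3 NPC arrays. The ESCs were V6.5, a wild type line derived from a blastocyst of 129SvJae/C57B6 F1 background, kept in serum with LIF. The NPCs, also wild type, were differentiated in vitro from the same line and grown on a coat of polyornithine and laminin in N3 medium to which bFGF and EGF were added, so both cell types stand for 1 cell line. The labels call the 3 arrays of each cell type biological replicates, with no word on whether they were separate differentiations. Values are those the authors deposited, made by robust multi-array average (RMA) on a log2 scale, on which 1 unit is a doubling, and probes differ in brightness, so that a value is compared only with values of the same gene. Where a percentile among the values of an array is given, it reflects the brightness of the probes as well as the RNA. The median value of an array was 5.75 to 5.76 in ESCs and 5.59 to 5.61 in NPCs, and NPC replicate 3 correlated less with the other NPC arrays (r = 0.978 to 0.979 across genes) than those did with each other (r = 0.997). Pou5f1, which encodes the pluripotency factor OCT4, was at 12.44 ± 0.02 in ESCs and 3.70 ± 0.11 in NPCs (SD, n = 3 each), and Fabp7, a lipid binding protein of radial glia, at 3.78 ± 0.06 and 13.05 ± 0.42. The marker Dcx of young neurons differed by -1.2 between NPC replicate 3 and the mean of the other NPC arrays, while the glial markers Slc1a3, S100b and Fabp7 differed by 1.1, 0.8 and 0.72. Slc1a3 and Fabp7 were listed here as neural progenitor markers, and Nes and Vim of the same list differed by -0.07 and -0.18. Olig1 differed by -0.22 and Olig2 by 0.65, so the markers did not move as 1 group. Between the cell types Dcx was 1.08 higher in NPCs, the astrocyte marker S100b 2.51 higher, and the oligodendrocyte lineage genes Olig1 and Olig2 3.92 and 3.81 higher. Whole marker lists could not be set beside the results because too few of their genes have a name here, and the part of any other cell type in the results was not tested.

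Of the 10 genes, 3 were called higher in NPCs (Epha3, Epha5 and Efnb2), 2 were called lower (Epha2 and Epha4) and 5 passed neither call. A call means an adjusted p under 0.05 in limma, with Benjamini-Hochberg adjustment over all 17144 genes, and a difference of means over 1.5-fold, which is 0.585 on the log2 scale. Over all genes 15.4% were called higher, 18.7% lower and 34.1% in either direction, so the 3 and 2 of 10 are read beside those shares and no more is drawn from the count. The split depends on the scaling between arrays: after median centring 4 of the 10 genes were called higher and 1 lower, with Efnb1 gained and Epha4 lost as also after quantile normalization, and the share of higher genes among all those called went from 45.1% to 55.6%. Of the 6 receptors 2 were called in each direction, and of the 4 ligands 1 was called higher and none lower, and whether receptors and ligands differ was not tested. The largest fall was that of Epha2 and the largest rise that of Epha5, both EphA receptors. The 3 NPC arrays lay above the 3 ESC arrays for 4 genes and below them for 4 others, against 26.1% and 32.6% of all genes. With 3 arrays against 3 an exact permutation test of a single gene cannot go below p = 0.1, so the tests given are those of the fit across all genes. RNA was taken from whole cultures, in which fewer cells that express a gene and less RNA per cell cannot be told apart.

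**Figure D1:**
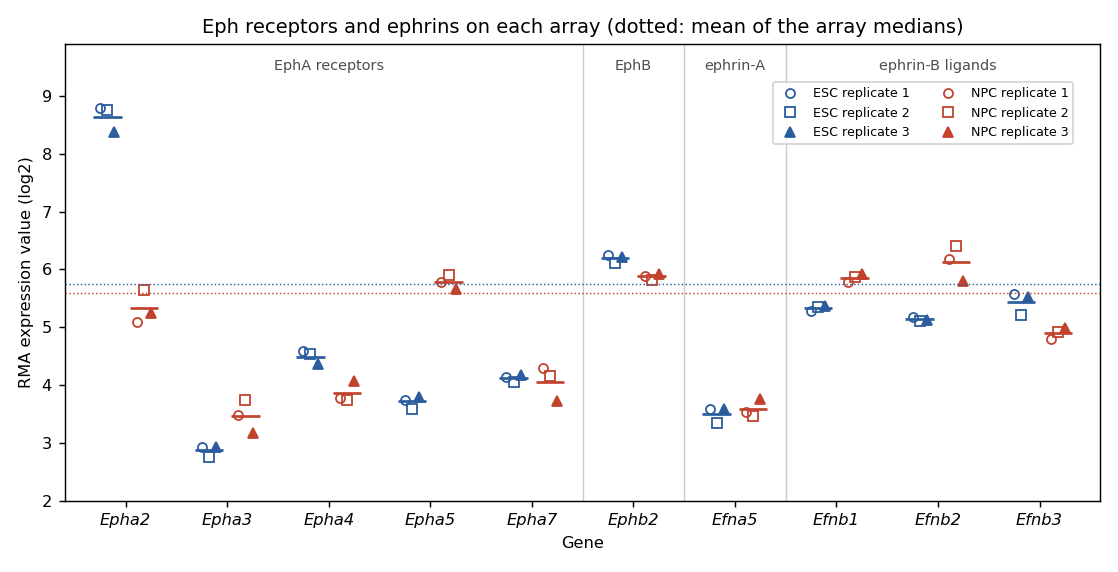
RMA log2 value (y axis) of the 10 genes (x axis) on each of the 3 ESC arrays (blue) and 3 NPC arrays (red), with a bar at the mean of each cell type and dotted lines at the mean of the array medians. Epha2 runs from 8.37 to 8.79 on the ESC arrays and from 5.09 to 5.65 on the NPC arrays, Epha5 and Efnb2 lie higher on every NPC array than on every ESC array, and Epha7 and Efna5 overlap; heights are not compared between genes.

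The start regions of the 3 genes with the largest changes are shown because they differ in how dense they are in CG pairs, the sites at which mammalian DNA is methylated. Each runs 5′ to 3′ on the gene's own strand from 250 bases before to 50 bases after a RefSeq start in build GRCm38.p6, with every CG in capitals. Epha2, which fell, is at chr4:141300971-141301270 on the plus strand, Epha5, which rose, at chr5:84417333-84417632 on the minus strand, and Efnb2, which also rose, at chr8:8661193-8661492 on the minus strand.
Epha2: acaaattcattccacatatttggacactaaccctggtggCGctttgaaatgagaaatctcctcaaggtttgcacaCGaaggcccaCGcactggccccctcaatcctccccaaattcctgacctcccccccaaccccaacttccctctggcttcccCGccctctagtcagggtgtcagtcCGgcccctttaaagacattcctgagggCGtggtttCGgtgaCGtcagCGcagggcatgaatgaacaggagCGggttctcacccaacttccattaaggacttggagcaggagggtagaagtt
Epha5: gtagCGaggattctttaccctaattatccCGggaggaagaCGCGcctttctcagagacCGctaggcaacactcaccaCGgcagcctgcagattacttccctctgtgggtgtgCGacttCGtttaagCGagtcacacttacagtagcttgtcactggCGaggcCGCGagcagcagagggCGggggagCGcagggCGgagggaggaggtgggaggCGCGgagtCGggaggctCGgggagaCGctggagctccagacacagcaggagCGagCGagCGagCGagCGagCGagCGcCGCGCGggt
Efnb2: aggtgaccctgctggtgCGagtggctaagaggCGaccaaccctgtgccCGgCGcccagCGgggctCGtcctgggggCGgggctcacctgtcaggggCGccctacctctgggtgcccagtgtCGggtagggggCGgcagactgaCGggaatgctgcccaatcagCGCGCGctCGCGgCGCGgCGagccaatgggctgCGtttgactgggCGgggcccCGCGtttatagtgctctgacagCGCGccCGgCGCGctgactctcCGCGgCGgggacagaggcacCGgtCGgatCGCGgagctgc

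The Epha2 window holds 10 CG pairs, against 30 in that of Epha5 and 35 in that of Efnb2. Among the 32851 windows of the same length in the RefSeq table the median was 7 CG pairs and the quartiles were 3 and 20, which puts Epha2 at percentile 58.6, Epha5 at 89.4 and Efnb2 at 93.8. Protein-coding genes were not separated from others among these windows, so the percentiles are not ranks among protein-coding genes. Windows were found for 9 of the 10 genes, with 2 for Epha7 and none for Efnb3. Of the other genes with a call, Epha4, called lower, had 17 CG pairs and Epha3, called higher, had 18. The windows of genes without a call ran from 14 CG pairs at Efnb1 to 38 at Efna5, and with so few genes the numbers are given as a description. The letters CTTTGTT, a core that SOX factors bind, are in 5.85% of all windows on either strand, the octamer ATGCAAAT that POU factors bind in 1.74%, and its form ATGCATAT in 0.77%. The motifs were searched separately as exact letters, and overlaps between their matches were kept. None of these letters occurs in the 10 windows of the Eph and ephrin genes, which says nothing of binding there or elsewhere.

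Epha2 (ENSMUSG00000006445_at), a receptor best known from epithelial and tumour cells and bound by ephrin-A ligands, gave the largest difference of the 10 genes. Its values were 8.79, 8.76 and 8.37 on ESC replicates 1 to 3 and 5.09, 5.65 and 5.25 on NPC replicates 1 to 3. All ESC arrays were high and all NPC arrays low, with no overlap. The means were 8.64 ± 0.24 and 5.33 ± 0.29 (SD, n = 3 each), and the difference of -3.31 (SE 0.18, 95% interval -3.73 to -2.89) is 9.93-fold lower in NPCs (limma, adjusted p = 6.52e-06). Only 1.73% of all genes had a difference as low or lower. In ESCs the gene stood at percentile 85.6 of the values of an array on average and in NPCs at 46.6, close to the middle.

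Epha5 (ENSMUSG00000029245_at), a receptor found mainly in brain and known from the targeting of axons in the forebrain, moved the other way. It measured 3.75, 3.59 and 3.80 in ESCs and 5.78, 5.90 and 5.66 in NPCs. Every NPC array was high and the 3 differed little, with an SD of 0.12 beside 0.11 in ESCs. The rise was 2.06 (SE 0.10, 95% interval 1.83 to 2.30), or 4.18-fold (limma, adjusted p = 3.95e-06), and it took the gene from percentile 19.4 of an array to 52.1. The ESC values are thus dim, and the size of the rise may be understated. A larger spread went with the smaller rise of Epha3 (ENSMUSG00000052504_at), a receptor for ephrin-A5 known from the mapping of retinal axons. Its values were 2.93, 2.75 and 2.93 in ESCs and 3.48, 3.74 and 3.17 in NPCs. No NPC array reached down to the ESC arrays, but NPC replicate 3 came closest to them and lay at -0.43 from the average of the other NPC arrays. The rise of 0.59 (SE 0.15, 95% interval 0.24 to 0.95), 1.51-fold, was at the edge of the call (limma, adjusted p = 0.0133). Without NPC replicate 2 it was 0.46 (adjusted p = 0.0321, under 1.5-fold) and without ESC replicate 2 it was 0.53 (adjusted p = 0.0551), so either array left out ends the call. All 6 values lay in the lowest 25% of their array, where RMA values are dim, and detection calls were not used here.

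Epha4 (ENSMUSG00000026235_at), a receptor that binds ephrins of both classes and is known from the guidance of axons in the spinal cord, was lower in NPCs. It measured 4.59, 4.53 and 4.36 in ESCs and 3.78, 3.75 and 4.07 in NPCs. The groups did not overlap, and NPC replicate 3 stood nearest to the ESC arrays, 0.31 above the mean of the other NPC arrays. The difference was -0.63 (SE 0.12, 95% interval -0.91 to -0.35), 1.55-fold (limma, adjusted p = 0.00334). It took the gene from percentile 32.9 of an array to 23.7, so the NPC values are dim. The size of this fall is near the threshold, and the call is lost where arrays are rescaled, at -0.53 after quantile normalization and -0.47 after centring each array on its median. It is also lost without ESC replicate 1 (-0.58), NPC replicate 1 (-0.58) or NPC replicate 2 (-0.57), in each case because the size drops below 1.5-fold while the adjusted p stays under 0.05.

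For Epha7 (ENSMUSG00000028289_at), a receptor expressed in the developing cortex and bound by ephrin-A5, the values were 4.14, 4.05 and 4.17 in ESCs and 4.30, 4.16 and 3.72 in NPCs. The ESC arrays lay inside the range of the NPC arrays, and NPC replicate 3 was the lowest of the 6, at -0.51 from the average of the other NPC arrays. The difference of -0.06 (SE 0.15, 95% interval -0.42 to 0.30) was not called (limma, adjusted p = 0.788), and that interval leaves out a change of 1.5-fold in either direction. This holds for the array values only. The gene stood at percentile 27.0 of an array in ESCs and 27.3 in NPCs, where values are dim and may understate a change in RNA. Its sign is not settled: it was 0.03 after quantile normalization, 0.09 after median centring and 0.11 without NPC replicate 3.

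The single EphB receptor, Ephb2 (ENSMUSG00000028664_at), which binds ephrin-B ligands and is known for its place at excitatory synapses, measured 6.25, 6.12 and 6.22 in ESCs and 5.89, 5.81 and 5.93 in NPCs. Every NPC array was lower than every ESC array, and both cell types varied little, with SDs of 0.07 and 0.06. The difference of -0.32 (SE 0.08, 95% interval -0.51 to -0.13) passed the adjusted p (limma, 0.0136) but was 1.25-fold and so was not called, and the whole interval lies under 1.5-fold.

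**Figure D2:**
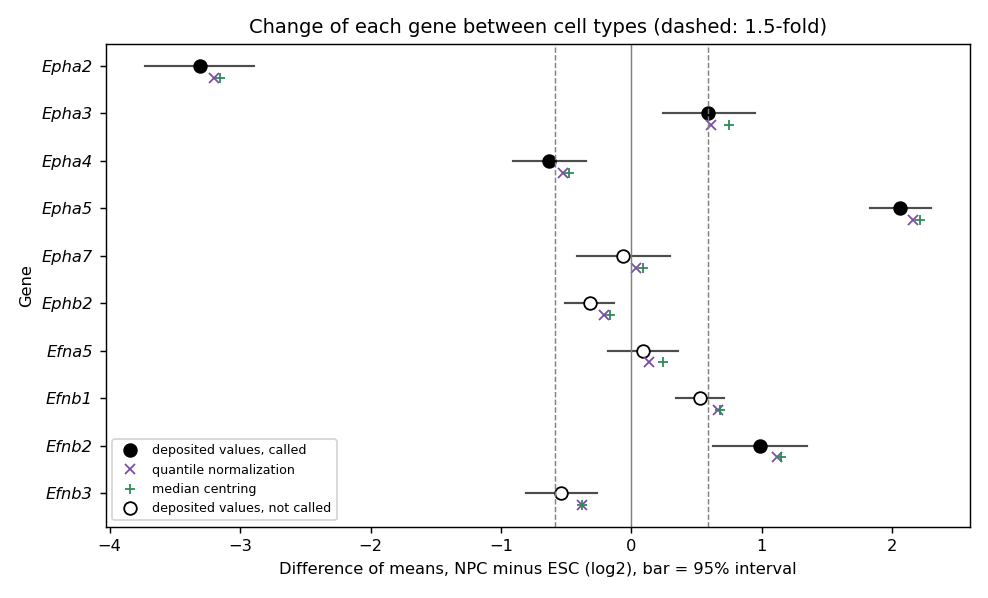
Difference of means, NPC minus ESC on the log2 scale (x axis), of each gene (y axis), with its 95% interval from limma; filled points were called, dashed lines mark 1.5-fold, and crosses and plus signs give the difference after quantile normalization and after median centring of the arrays. Epha2, Epha5 and Efnb2 lie clear of the dashed lines under all 3 scalings, while Epha3, Epha4, Efnb1 and Efnb3 lie near them.

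Of the ligands, only Efnb2 was called. Efnb2 (ENSMUSG00000001300_at), the ephrin-B2 ligand known as a marker of arterial endothelium and also expressed by neural cells, measured 5.18, 5.11 and 5.12 in ESCs and 6.18, 6.41 and 5.80 in NPCs. The ESC arrays were close together, with an SD of 0.04, and every NPC array was higher, with NPC replicate 3 the lowest of the 3, at -0.49 from the mean of the others. The rise was 0.99 (SE 0.15, 95% interval 0.63 to 1.35), 1.99-fold (limma, adjusted p = 0.00129). It was 0.85 without NPC replicate 2 and 1.16 without NPC replicate 3, and was called in each case.

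Efnb1 (ENSMUSG00000031217_at), an X-linked ephrin-B ligand known from cortical progenitors and from the development of the face and skull, measured 5.28, 5.36 and 5.37 in ESCs and 5.79, 5.87 and 5.93 in NPCs. The groups were far apart for their spread, with SDs of 0.05 and 0.07. Its rise of 0.53 (SE 0.08, 95% interval 0.34 to 0.71) had a lower adjusted p than those of Efnb2 and Epha3 (limma, 0.00112) but was 1.44-fold and not called. After quantile normalization it was 0.67 and after median centring 0.68, both called, so this gene changes sides with the scaling while its direction does not.

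Efnb3 (ENSMUSG00000003934_at), the ephrin-B ligand at the midline of the spinal cord that repels axons bearing EphA4, went the opposite way to the other ephrin-B ligands. It measured 5.57, 5.21 and 5.52 in ESCs and 4.80, 4.92 and 4.98 in NPCs. ESC replicate 2 was the nearest to the NPC arrays and still above all of them. The difference of -0.54 (SE 0.12, 95% interval -0.81 to -0.26), 1.45-fold, passed the adjusted p (limma, 0.00752) and not the fold, and without ESC replicate 2 it was -0.65 and called.

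The only ephrin-A ligand, Efna5 (ENSMUSG00000048915_at), known from the gradients that map retinal axons onto the midbrain, measured 3.58, 3.34 and 3.59 in ESCs and 3.54, 3.47 and 3.76 in NPCs. The 2 cell types overlapped, and the difference was 0.09 (SE 0.11, 95% interval -0.18 to 0.36; limma, adjusted p = 0.572). That interval leaves out a change of 1.5-fold, for the array values only. Like Epha3, Efna5 lay in the lowest 25% of every array, as did 19.1% of all genes. Values there are dim and may understate a change in RNA.

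Over the 10 genes the median difference was 0.015 and the median size of a difference 0.56 on the log2 scale, against -0.036 and 0.33 over all genes. The median SD among arrays was 0.108 in ESCs and 0.166 in NPCs for the 10 genes, and 0.0918 and 0.138 for all genes. Rescaling shifts every difference: the median over all genes became 0.027 after quantile normalization and 0.119 after median centring, and the differences of the 10 genes moved up with it.

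**Figure D3:**
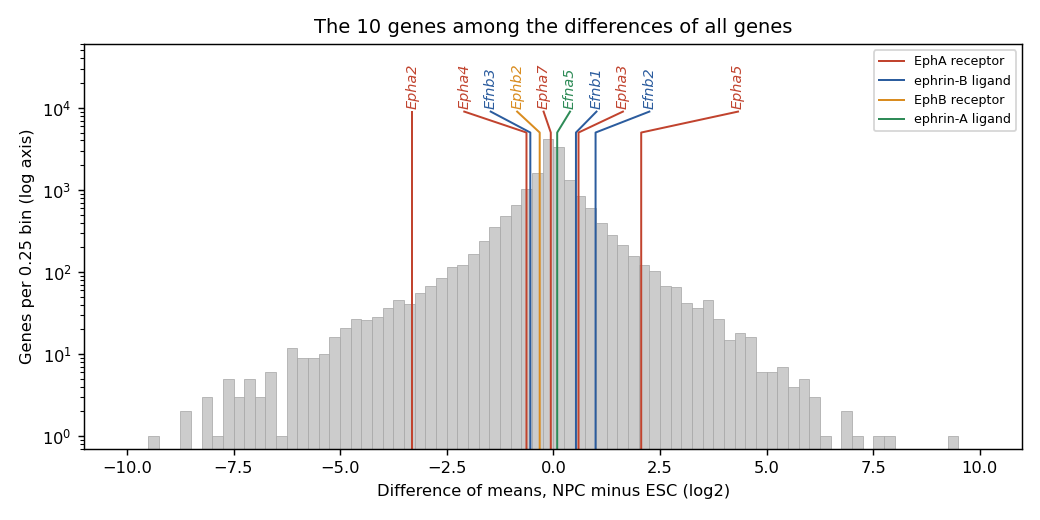
Number of genes (y axis, log scale) in each 0.25 wide bin of the difference of means, NPC minus ESC on the log2 scale (x axis), for all 17144 genes, with lines at the 10 Eph and ephrin genes coloured by class. Epha2 at -3.31 lies in the lower tail and Epha5 at 2.06 in the upper one, and the other 8 lie between -0.63 and 0.99.

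NPC replicate 3, which stood apart from the other NPC arrays across the table, lay a median of 0.22 away from the average of NPC replicates 1 and 2 over the 10 genes, against 0.17 over all genes. None of the 10 differed by over 1 on the log2 scale between NPC replicate 3 and the mean of the other NPC arrays, whereas 4.0% of all genes did, and 0 of 10 genes cannot be told apart from that share. The widest gaps were -0.51 for Epha7, -0.49 for Efnb2, -0.43 for Epha3 and 0.31 for Epha4. Leaving that array out ended no call, and the differences of the 5 called genes were then -3.27 for Epha2, 0.74 for Epha3, -0.73 for Epha4, 2.12 for Epha5 and 1.16 for Efnb2.

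**Figure D4:**
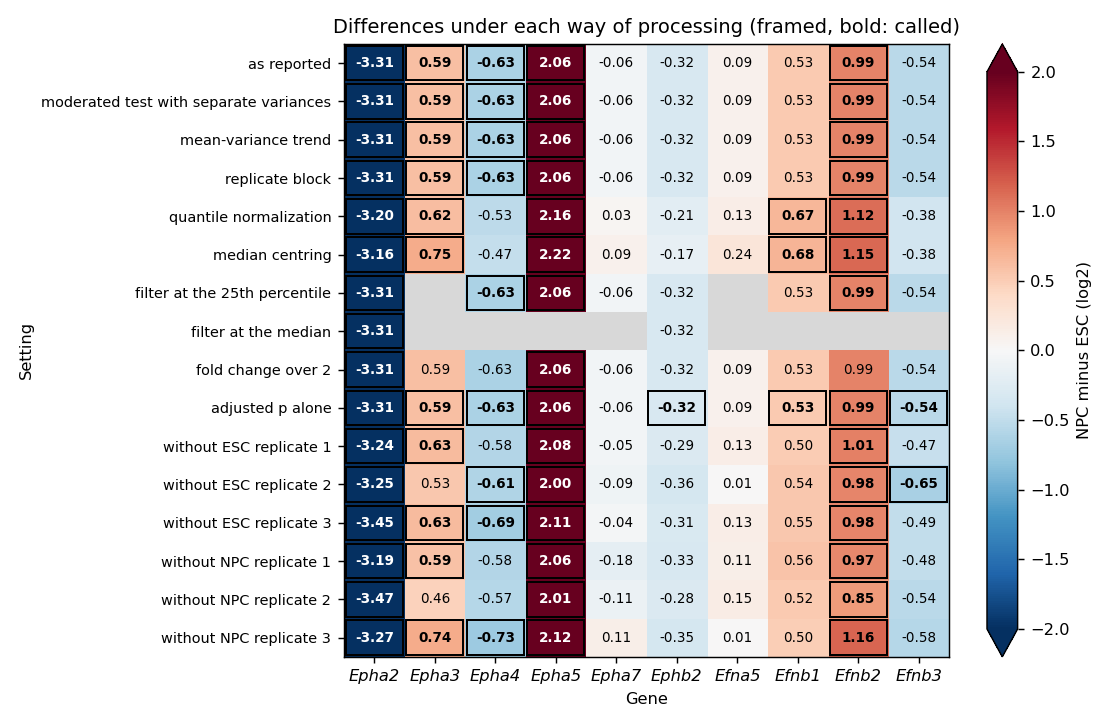
Difference of means, NPC minus ESC on the log2 scale (colour and number), of each gene (columns) under each way of processing (rows), with called values framed and in bold and grey where a filter removed the gene. Epha2 is called in every row, Epha5 in every row in which it was tested, Efnb2 in all of its rows but that of fold change over 2, and Epha7 and Efna5 in none.

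Other genes of the pathway were listed by role, 54 in all: 8 further Eph receptors, 4 further ephrins, 34 proteins of forward signalling and 8 of reverse signalling and shedding. Only 13 of them can be named here, and all 13 were called higher in NPCs. Names came from rows of the study's tables, which hold mostly genes that rose in NPCs. Genes which fell or stayed are thus nearly all unnamed, and the 13 are no balanced sample of the lists. Ephb1, a further receptor of ephrin-B ligands, measured 3.98, 4.12 and 4.29 in ESCs and 7.0, 6.79 and 6.01 in NPCs. NPC replicate 3 was the lowest NPC array, as for Efnb2, and the rise was 2.47 (SE 0.25; limma, adjusted p = 0.000144). None of the 4 further ephrins could be named.

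In forward signalling 9 of 34 genes were named. Vav3, an exchange factor recruited by activated Eph receptors, rose by 5.42 (SE 0.19; limma, adjusted p = 8.42e-07). Fyn, a Src family kinase that acts below Eph receptors and ephrins, rose by 4.21 (SE 0.16, adjusted p = 1.23e-06), and Ptpro, a phosphatase that removes phosphate from Eph receptors, by 4.20 (SE 0.21, adjusted p = 5.13e-06). Chn2, a chimaerin that switches off Rac, rose by 3.55 (SE 0.34, adjusted p = 0.00012), and NPC replicate 3 stood 1.30 above the mean of the other NPC arrays for it. In reverse signalling and shedding 3 of 8 were named. Adam10, a protease that cuts ephrin-A ligands and other membrane proteins from the cell surface, rose by 2.09 (SE 0.16, adjusted p = 3.53e-05), Grip1, a scaffold that binds the tails of ephrin-B ligands, by 2.00 (SE 0.16, adjusted p = 4.47e-05), and Sdcbp, the scaffold syntenin, by 1.08 (SE 0.13, adjusted p = 0.000352). Each of these 8 named genes was higher on every NPC array than on every ESC array, as were 26.1% of all genes. Names came mostly from genes that rose, and all but Ephb1 were then picked by size among called genes. This count and their adjusted p-values (limma) are thus a description and no test of the pathway.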

How the data were processed

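RNA from 3 ESC and 3 NPC samples, labelled as biological replicates, was measured on 1 Affymetrix mouse expression array each. Groups and replicate numbers came from the sample labels. The authors deposited log2 values made by RMA, a method of background correction, quantile normalization of probes and summary to 1 value per gene, for which probes were grouped by Ensembl gene with an updated annotation (BrainCDF). For the version of that annotation and for its genome build, the sources used here give no entry. Summarizing all probes of a gene can hide isoforms and can shrink the differences of dim genes. Scanner files and detection calls were not used here, and precision is limited by how few arrays there are.

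Of 17208 rows, 64 control probe sets were left out and 17144 genes kept, with no filter or further scaling. NPCs were compared with ESCs by lmFit and eBayes of limma 3.58.1, run without covariates under R 4.3.3 and checked on simulated data, and p-values were adjusted by Benjamini-Hochberg over all genes. The thresholds, adjusted p under 0.05 and over 1.5-fold, follow the methods of the study, which used a moderated Welch test. A moderated test with separate variances was an alternative here. It is a version of that kind of test with the variances of each cell type moderated by limma, and not the study's own procedure. Intervals are 95% intervals of the same fit, and a percentile is the share of genes with that value or less on the same array, averaged over a cell type.

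The 10 genes were taken by identifier from a list that pairs each with its gene name. The names of 2 of them (Epha5 and Efnb2) were checked through rows of the study's tables that equal the deposited row in all 6 values within 0.0001. Other names, 1998 genes or 11.7%, came only from such rows, which hold mostly genes that rose, and no pathway or marker list reached the 80% named that a summary of it needs. The 10 genes and the lists were chosen with earlier results of these data known. All 10 genes are named, and of the other pathway genes up to 8: first Eph and ephrin genes, then those with the largest differences among called genes of each list. Start regions were read from a RefSeq table of build GRCm38.p6. Columns of the study's own fold changes and p-values were not used. Alternatives were another variance model, a replicate block, other scalings, filters and fold thresholds, and each array left out in turn. Other computation used Python 3.11.15 with pandas 2.3.3, and plots used matplotlib 3.10.9.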

Additional observations from a re-analysis of the deposited data

How the results depend on the processing

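Of 140 values of the 10 genes under the alternatives, 121 kept their direction and their side of the call, 10 lost the call, 6 gained it and 3 changed sign. The moderated test with separate variances, the mean-variance trend, the replicate block, the filters and the moved thresholds cannot change a difference. Under these the direction was kept by construction. Epha3, Epha4 and Efnb2 lost the call with a fold change over 2 through the threshold alone. Ephb2, Efnb1 and Efnb3 gained it with the adjusted p alone in the same way. The 3 changes of sign are all of Epha7, never called, whose difference was 0.0349 after quantile normalization and 0.0937 after median centring. With each array left out in turn it was -0.1793 (without NPC replicate 1) to 0.1113 (without NPC replicate 3). Where 3 genes were called higher and 2 lower, the lower count was 1 after quantile normalization and 1 after median centring, since Epha4 fell under 1.5-fold. With a fold change over 2 it was 1 higher and 1 lower. With the adjusted p alone 4 were higher and 4 lower. Under the filter at the median only Epha2 and Ephb2 were tested, which gave 0 higher and 1 lower. Leaving out each array in turn gave 2 to 3 higher and 1 to 3 lower, over 5637 to 6199 calls among all genes, and Epha2, Epha5 and Efnb2 were called each time. Over all genes 3592 were called with a fold change over 2 against 5851.

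With the replicate block 5867 genes were called, and the members called were the same 3 higher and 2 lower. Deviations of arrays with the same number correlated at 0.0264, 0.011 and -0.00645, and not every array correlated best with its own number. No pairing was seen in these values or named in the labels, so none was taken from the number. Whether arrays of the same number share a culture or a date cannot be told from this. The moderated test with separate variances and the mean-variance trend left the same 3 and 2 genes called. Differences near 1.5-fold (Epha3, Epha4, Efnb1 and Efnb3) cannot be placed on either side with 3 arrays a cell type. Dim values, as for Epha3, Efna5, Epha7, Epha5 in ESCs and Epha4 in NPCs, may understate changes. Signal over background was not analysed here.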
